A study of Mus musculus with 13 samples.

Results

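The trimethyl and the acetyl mark on lysine 27 of histone H3 were compared gene by gene in cultured mouse olfactory basal cells. The comparison used the 2 H3K27me3 and the 2 H3K27ac peak lists of a series of 13 chromatin immunoprecipitation sequencing (ChIP-seq) samples. Every gene that the authors' annotation named for at least 1 peak of these 4 lists was included, which gave 21591 of the 22481 genes named in all lists of the series. The 4 lists contributed 68881 and 101107 H3K27me3 peaks (replicates 1 and 2) and 123071 and 112098 H3K27ac peaks.

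All 4 libraries came from unmodified C57BL6 cells of the adult olfactory epithelium, isolated by c-KIT expression and kept as adherent lines on gelatin in NeuroCult medium with EGF, FGF2, heparin, BMP4 and SB431542, an inhibitor of TGF-beta type I receptors. H3K27me3 replicate 1 was line 1 at passage 12, and replicate 2 was line 2 at passage 11. H3K27ac replicate 1 was line 2 at passage 13, and replicate 2 was line 3 at passage 14. The 2 libraries of a mark were therefore different lines, and mark and line cannot be told apart except between H3K27me3 replicate 2 and H3K27ac replicate 1. The libraries represent passaged cultures and not tissue, and the lists give no read counts, so depth is unknown.

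Both marks sit on the same residue, so a single histone tail can carry only one of them. H3K27me3 is written by Polycomb repressive complex 2 and is found in broad domains over silent developmental genes. H3K27ac is written by the acetyltransferases CBP and p300 and is found at active promoters and enhancers. In the olfactory epithelium, basal cells divide and replace sensory neurons through life, and genes of the neuronal programme have to stay silent in the precursors until they are used.

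The sequences just before the start of 9 genes show the kind of promoter on which each mark lay. Each line gives the 250 bases before the RefSeq start (GRCm38.p6, the assembly of mm10), 5′ to 3′ on the strand of the gene, with every CG dinucleotide in capitals. The first 4 genes had all 250 bases under H3K27me3 in both libraries and none under H3K27ac. They are a Hox gene (chr6:52260881-52261130, minus strand), a LIM factor of the olfactory neuron lineage (chr2:38339031-38339280, plus), a proneural factor (chr13:56252181-56252430, minus) and the receptor used to isolate the cells (chr5:75574737-75574986, plus).
Hoxa13: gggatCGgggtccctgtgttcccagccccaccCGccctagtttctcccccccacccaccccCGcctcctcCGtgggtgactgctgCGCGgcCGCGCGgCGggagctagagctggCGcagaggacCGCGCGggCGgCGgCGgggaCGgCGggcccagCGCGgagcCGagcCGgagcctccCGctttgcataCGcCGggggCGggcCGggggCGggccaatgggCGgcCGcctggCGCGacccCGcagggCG
Lhx2: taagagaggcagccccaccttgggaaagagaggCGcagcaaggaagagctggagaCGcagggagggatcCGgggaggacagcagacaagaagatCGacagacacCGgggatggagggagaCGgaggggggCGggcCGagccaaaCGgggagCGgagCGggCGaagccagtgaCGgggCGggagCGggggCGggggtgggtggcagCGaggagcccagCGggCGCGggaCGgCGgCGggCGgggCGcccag
Neurog1: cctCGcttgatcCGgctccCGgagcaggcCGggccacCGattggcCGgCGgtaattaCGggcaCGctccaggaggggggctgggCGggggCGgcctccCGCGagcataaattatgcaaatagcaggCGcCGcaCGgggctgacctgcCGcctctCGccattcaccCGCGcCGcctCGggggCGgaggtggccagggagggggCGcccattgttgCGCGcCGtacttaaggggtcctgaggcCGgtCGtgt
Kit: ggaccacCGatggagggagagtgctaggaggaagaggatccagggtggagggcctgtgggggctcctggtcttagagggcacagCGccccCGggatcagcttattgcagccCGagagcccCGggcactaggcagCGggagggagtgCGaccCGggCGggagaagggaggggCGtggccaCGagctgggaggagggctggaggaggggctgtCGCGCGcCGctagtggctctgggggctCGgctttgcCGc
The next 3 had all 250 bases under H3K27ac in both libraries and none under H3K27me3: the genes with the 2 widest promoter acetylation margins (chr4:139193861-139194110, plus; chr15:77842176-77842425, minus) and a progenitor factor (chr3:34649745-34649994, plus).
Capzb: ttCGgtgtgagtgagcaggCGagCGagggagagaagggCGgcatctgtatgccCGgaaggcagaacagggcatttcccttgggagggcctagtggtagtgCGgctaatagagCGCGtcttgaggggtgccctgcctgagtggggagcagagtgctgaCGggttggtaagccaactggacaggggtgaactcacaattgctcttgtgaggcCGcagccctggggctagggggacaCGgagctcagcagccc
Myh9: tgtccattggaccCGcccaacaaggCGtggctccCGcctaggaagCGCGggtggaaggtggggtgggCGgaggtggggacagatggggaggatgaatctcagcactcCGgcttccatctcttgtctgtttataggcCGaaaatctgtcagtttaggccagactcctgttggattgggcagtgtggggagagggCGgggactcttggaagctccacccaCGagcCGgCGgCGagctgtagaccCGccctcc
Sox2: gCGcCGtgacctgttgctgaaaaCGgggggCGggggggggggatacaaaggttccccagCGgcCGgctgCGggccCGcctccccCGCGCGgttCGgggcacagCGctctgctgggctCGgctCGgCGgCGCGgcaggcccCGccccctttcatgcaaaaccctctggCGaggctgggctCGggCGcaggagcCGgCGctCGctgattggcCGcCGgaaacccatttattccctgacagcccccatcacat
The last 2 belong to genes whose promoter and surroundings carried opposite marks, described further on. Micall2 (chr5:139736334-139736583, minus) was acetylated at the start and Adcyap1 (chr17:93198767-93199016, plus) trimethylated.
Micall2: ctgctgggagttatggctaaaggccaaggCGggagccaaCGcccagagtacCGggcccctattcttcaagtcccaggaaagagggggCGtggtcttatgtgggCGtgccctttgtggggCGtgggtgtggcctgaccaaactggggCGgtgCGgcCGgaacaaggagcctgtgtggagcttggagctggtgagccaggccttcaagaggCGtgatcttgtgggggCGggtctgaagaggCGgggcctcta
Adcyap1: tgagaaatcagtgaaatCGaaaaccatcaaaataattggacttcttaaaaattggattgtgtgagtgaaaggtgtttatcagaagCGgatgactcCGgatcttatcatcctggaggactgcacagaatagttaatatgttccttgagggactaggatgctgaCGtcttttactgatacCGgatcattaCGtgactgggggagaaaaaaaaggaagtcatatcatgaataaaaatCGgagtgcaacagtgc

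CG density did not separate the 2 marks in these 9 windows. Hoxa13, Neurog1 and Lhx2 held 35, 29 and 25 CG, and Sox2 held 27. Kit held 17, Capzb 11, Myh9 14, Micall2 12 and Adcyap1 7. Over 17273 coding genes with such a window, the median was 10 CG. Of these windows, 1591 (9.21%) lay under H3K27me3 of both libraries only, with a median of 9 CG, and 8649 (50.1%) lay under H3K27ac only, with a median of 17. The 153 windows under both marks (0.886%) had the highest median, 21 CG, and the 4579 windows under no peak (26.5%) had the lowest, 2. The letters TATAAA, searched on both strands with no overlap with CG possible, occurred in 12.5% of all windows, in 10.1% of those with H3K27me3 only, 5.45% of those with H3K27ac only and 27.1% of those with no peak. Of the 9 printed windows, that of Myh9 held them. These are descriptions of letters in a fixed window.

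Peak length was spread differently over the genome by the 2 marks. H3K27me3 placed 40.3 and 43.0% of its peak length in distal intergenic sequence (41.7% ± 1.91, SD, n = 2), and H3K27ac placed 21.7 and 23.2% there (22.5% ± 1.06, n = 2), a difference of 19.2 percentage points. Promoters, which the authors' annotation counts to 3 kb from a start, held 26.1 and 24.4% of H3K27me3 length against 32.7 and 33.3% of H3K27ac length. Introns held 20.9 and 18.0% against 26.1 and 26.5%, and exons 7.78 and 8.91% against 11.1 and 9.53%. In each of these 4 classes both libraries of one mark lay above both of the other. With 2 libraries per mark, an exact permutation test (two-sided) gave p = 0.333 in each class, the smallest value this design allows.

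**Figure D1:**
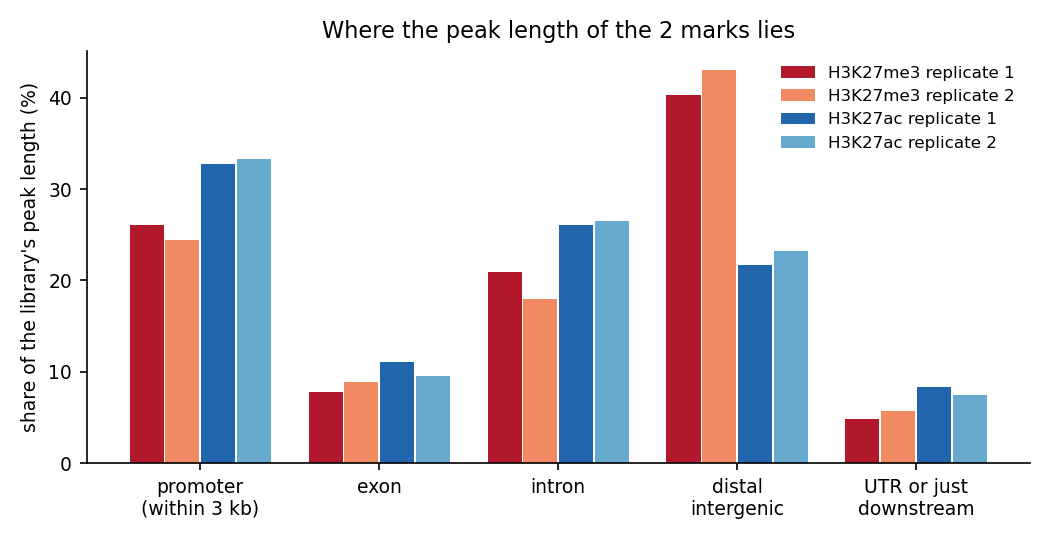
Share of each library's total peak length (%, y axis) in 5 annotation classes (x axis), with 1 bar per library. The distal intergenic bars of H3K27me3 stand at 40.3 and 43.0%, above 21.7 and 23.2% for H3K27ac, and the order is the opposite in the other classes.

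The promoter and exon differences depended on weak peaks. The lists reach a q-value of 0.1, and peaks with a q-value of at most 0.01 made up 44.5 and 69.4% of H3K27me3 length but 88.6 and 89.7% of H3K27ac length. Among those stronger peaks the promoter share was 42.4 and 30.9% for H3K27me3 and 35.4 and 35.6% for H3K27ac, so that the difference turned from -7.72 to 1.13 percentage points and the groups overlapped. The exon shares overlapped as well, at 7.08 and 9.50% against 10.7 and 9.04%, a difference of -1.58 points (exact permutation p = 0.667). The distal and intron groups stayed apart, with differences of 12.9 and -10.5 points.

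The covered length was 80.7 and 188 Mb for H3K27me3 and 166 and 151 Mb for H3K27ac, with median peak widths of 681, 885, 704 and 726 bp. Distal H3K27me3 peaks were narrower than those at promoters, with mean widths of 988 and 1494 bp against 2125 and 3990 bp, so their larger share came from their number, 32925 and 54046 peaks against 9915 and 11478. Mean promoter widths of H3K27ac were 2370 and 2293 bp. In all 4 libraries the promoter class was more common among the widest peaks than among the narrowest. A peak counts as promoter when it touches that region, so a wide peak receives this class more easily than a narrow one. The same limit applies to the mean widths of promoter and distal peaks. Of peaks of at least 10 kb, 65.6 and 45.2% of the H3K27me3 and 60.2 and 60.3% of the H3K27ac peaks were annotated as promoter, against 10.9, 7.58, 11.7 and 12.3% of peaks under 1 kb.

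Around gene starts the 2 marks had different shapes. H3K27ac peaks covered the start of 54.9 and 55.2% of coding genes, 3.98 and 4.68 times the level 20 kb away. H3K27me3 peaks covered the start of 12.7 and 17.4% of genes, 2.63 and 1.65 times the level 20 kb away, and reached their maximum 0.5 kb inside the gene at 13.7 and 17.7%. At 2 kb inside the gene, H3K27ac had dropped to 18.9 and 17.4% and H3K27me3 stood at 8.71 and 14.1%. At 5 kb before the start H3K27me3 stood at 5.12 and 11.8% and H3K27ac at 11.8 and 10.4%, and at 20 kb before it at 5.04 and 11.4% against 13.3 and 11.3%. At 5 kb inside the gene both H3K27ac libraries, at 15.9 and 13.8%, lay above H3K27me3 at 5.12 and 10.4%.

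**Figure D2:**
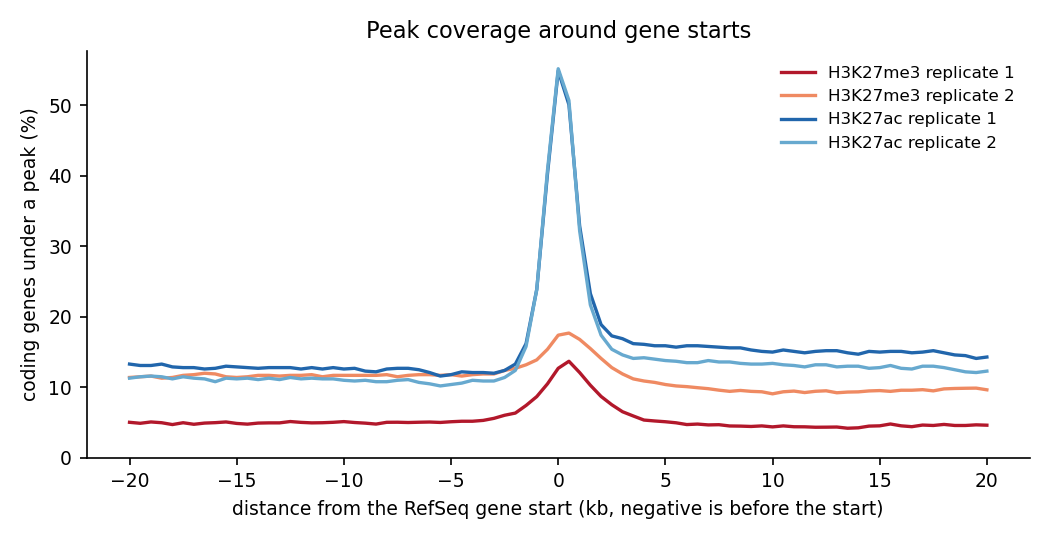
Share of coding genes whose base at a given distance from the RefSeq start lies under a peak (%, y axis), against that distance (kb, x axis, negative before the start), with 1 line per library. H3K27ac forms a narrow summit of 54.9 and 55.2% at the start, and H3K27me3 a lower and wider rise to 13.7 and 17.7%.

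For each gene and class, the widths of its peaks were summed per library, and a mark was called wider at a gene when both of its libraries exceeded both libraries of the other mark. No p-value goes with this call: an exact permutation test of 2 libraries against 2 cannot go below 0.333, and no model was fitted to the widths. At promoters H3K27me3 was wider at 3942 of 18921 genes (20.8%) and H3K27ac at 11060 (58.5%). In exons the counts were 1268 (12.8%) and 3602 (36.3%) of 9936 genes, and in introns 1821 (13.5%) and 6260 (46.5%) of 13456 genes. In distal intergenic sequence, where a peak is given to the gene with the nearest start, the counts were 3714 (27.6%) and 3983 (29.6%) of 13467 genes. These 2 distal counts were close only with all peaks and all 4 libraries: at a q-value of at most 0.01 they were 1571 and 4660, and without H3K27me3 replicate 1 they were 6858 and 4132. Over all classes together H3K27me3 was wider at 4837 (22.4%) and H3K27ac at 11402 (52.8%) of 21591 genes.

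Promoter widths of the 2 marks ran in opposite order across genes with a promoter peak in at least 1 of the 4 lists. Promoter widths of different marks had Spearman coefficients between -0.522 and -0.405, against 0.694 between the H3K27me3 libraries and 0.861 between the H3K27ac libraries. The coefficients between marks were -0.367 to -0.233 in exons, -0.105 to 0.0400 in introns and 0.0680 to 0.125 in distal sequence. Genes with no peak of either mark in a class were left out, which by itself lowers the coefficients between marks. At promoters, 47.0% of the genes kept had H3K27ac in both libraries and no H3K27me3 peak, and 12.8% the reverse. The coefficients describe genes of the same 4 lists, which share libraries and are not independent replicates. All 4 libraries had a peak at 3.69% of genes in exons, 9.61% at promoters, 14.4% in introns and 29.3% in distal sequence.

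The call counts moved with the threshold and with single libraries. At a q-value of at most 0.01, wider H3K27me3 was called at 2380 promoters and at 442 and 697 genes in exon and intron classes, with 11163, 2879 and 5812 for H3K27ac. Without H3K27me3 replicate 1, the library with the smaller covered length, the exon and intron counts of wider H3K27me3 were 2709 and 3472 and the count over all classes was 7885. Without H3K27me3 replicate 2 the exon count was 1932, and without H3K27ac replicate 2 the exon count of wider H3K27ac was 5416. Fewer libraries have to agree in each of these counts.

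Slc6a7, Nrxn2 and Adgrb1 had the largest promoter margins of H3K27me3, with predicted genes left out. Slc6a7, a proline transporter of synapses, had 96.0 and 103 kb of promoter H3K27me3 and no H3K27ac peak. Nrxn2, a presynaptic adhesion molecule, had 57.2 and 139 kb of H3K27me3 and 0.401 and 0 kb of H3K27ac. Adgrb1, an adhesion receptor of the brain, had 48.3 and 95.3 kb of H3K27me3 and 0.868 and 1.75 kb of H3K27ac. These genes were chosen by the margin of both H3K27me3 libraries over both H3K27ac libraries, so its direction follows from the choice. The 2 H3K27me3 libraries of Nrxn2 and Adgrb1 were far apart.

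A pair of cytoskeletal genes headed the acetylated side. Capzb, the beta subunit of the actin capping protein, had no promoter H3K27me3 peak and 103 and 103 kb of H3K27ac, a single peak in replicate 2 (chr4:139190373-139292996). Myh9, the heavy chain of a non-muscle myosin, had none and 72.6 and 86.6 kb, with 1 peak in each library (chr15:77759519-77846099 in replicate 2). Such peaks run over much of the gene and count as promoter because they touch its start.

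**Figure D3:**
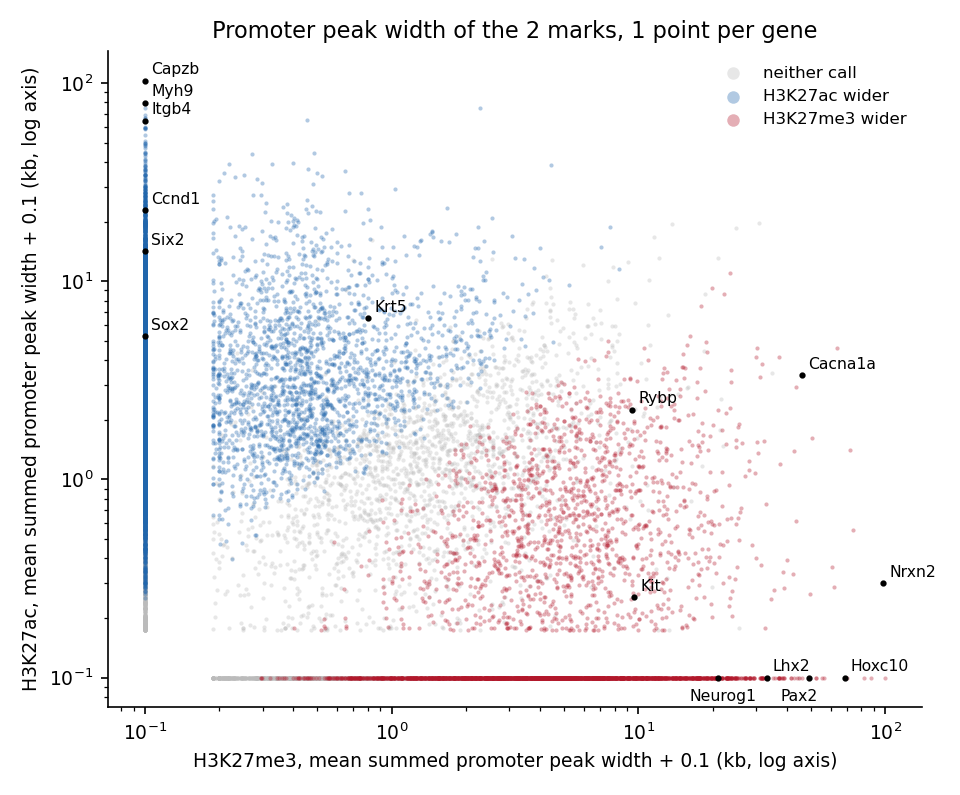
Mean summed promoter peak width of H3K27ac (kb, y axis) against H3K27me3 (kb, x axis) with 1 point per gene, both on log axes after adding 0.1 kb, coloured by which mark was wider in both libraries. Genes with a peak of 1 mark only lie on the 2 edges, Capzb and Myh9 at the top left and Hoxc10 and Pax2 at the bottom right.

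In introns, the largest H3K27me3 margins were those of Rbfox3, Grik4 and Kirrel3. Rbfox3, which encodes the neuronal nuclear antigen NeuN, had 192 and 177 kb of intronic H3K27me3 and 7.04 and 10.9 kb of H3K27ac. Grik4, a kainate receptor subunit, had 110 and 145 kb against 3.17 and 5.40 kb. Kirrel3, an adhesion molecule of olfactory axons, had 95.6 and 203 kb against 16.2 and 9.79 kb. The widths of Rbfox3 and Kirrel3 were spread over many separate peaks. Rbfox3 had 87 and 15 intronic H3K27me3 peaks in the 2 libraries, and Kirrel3 had 86 and 90.

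Among intronic H3K27ac, Ank3, the membrane adaptor ankyrin-G, had 156 and 116 kb and 0.451 and 1.57 kb of H3K27me3. Apbb2, a binding partner of the amyloid precursor protein, had 150 and 124 kb against 1.70 and 4.39 kb. Tead1, a transcription factor that works with YAP, had 110 and 105 kb against 0.385 and 0 kb. These 3 genes were likewise chosen by their margin. In exons, Tbcel had 37.2 and 120 kb of H3K27me3 against 4.39 and 1.14 kb of H3K27ac, and Mir9-3hg, the host transcript of a neural microRNA, 34.7 and 41.3 kb against 1.23 and 0.744 kb. The acetylated side of the exon class was led by Myof, a membrane repair protein, with no H3K27me3 and 63.4 and 48.3 kb of H3K27ac, Fadd, an adaptor of death receptors, with 50 and 42.3 kb, and Trio, a guanine nucleotide exchange factor, with 56.2 and 42.1 kb. A wide peak is counted in 1 class only.

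In distal sequence, the gene with the most H3K27me3 was Mroh5, with 174 and 264 kb of H3K27me3 and 4.92 and 7.05 kb of H3K27ac. Its widest single stretch in replicate 2, 47.8 kb long at chr15:74094155-74141932, lay at -254484 bp from the Mroh5 start (negative is before it). Rybp, a subunit of Polycomb repressive complex 1 (PRC1), had 127 and 235 kb of distal H3K27me3 against 15.1 and 14.8 kb of H3K27ac, and Trim29 111 and 170 kb against 3.03 and 6.37 kb. Rybp's own promoter carried both marks, with 2.34 and 16.3 kb of H3K27me3 and 2.35 and 1.95 kb of H3K27ac, and no mark was called wider there.

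On the acetylated side of the distal class, Tgfbr2, the type II TGF-beta receptor, had 110 and 102 kb of distal H3K27ac and 1.29 and 7.25 kb of H3K27me3, and its widest distal stretch lay at chr9:116215650-116234868 in replicate 2, at -40287 bp from the start. Ccnd1, cyclin D1, had 104 and 94.0 kb of H3K27ac in introns and distal sequence against 1.64 and 1.41 kb of H3K27me3, and 23.6 and 21.9 kb at its promoter, where no H3K27me3 peak was listed. Irf2bp2, a transcriptional corepressor, had 84.2 and 84.6 kb beyond the promoter against 0.710 and 9.87 kb.

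Most genes with a called promoter carried the same mark around it or no clear excess of either. Introns and distal sequence were summed for this as the region beyond the promoter, where H3K27me3 was wider at 4006 (21.7%) and H3K27ac at 7322 (39.6%) of 18476 genes. Of 3588 genes with a wider H3K27me3 promoter and a peak beyond it, 55.1% had wider H3K27me3 there too, 34.8% had neither and 10.2% had wider H3K27ac. Of 9217 genes with a wider H3K27ac promoter, 55.9% had wider H3K27ac beyond it, 34.6% had neither and 9.54% had wider H3K27me3.

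The opposite arrangements were rare. An acetylated promoter with H3K27me3 beyond it occurred at 879 of 15983 genes (5.50%), and a trimethylated promoter with H3K27ac beyond it at 365 (2.28%). At a q-value of at most 0.01 the first count fell to 345. Without H3K27me3 replicate 1 the counts were 2256 and 757, and the second count was 863 without H3K27me3 replicate 2, 556 without H3K27ac replicate 1 and 534 without H3K27ac replicate 2.

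Micall2, an actin-linked scaffold protein, was the clearest acetylated promoter in trimethylated surroundings. Its promoter had 22.7 and 21.3 kb of H3K27ac and 0.713 and 0 kb of H3K27me3, and the region beyond had 38.8 and 59.3 kb of H3K27me3 and 3.69 and 5.47 kb of H3K27ac. In the line 2 libraries the acetylated peak spanned chr5:139717575-139740267 and the widest distal H3K27me3 peak chr5:139653209-139691623, in the direction of transcription.

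Anxa2, annexin A2, had no promoter H3K27me3 and 18.0 and 29.7 kb of H3K27ac, with 39.0 and 54.2 kb of H3K27me3 beyond. Arhgef1, also a guanine nucleotide exchange factor, had 14.6 and 13.1 kb of promoter H3K27ac and 11.5 and 29.0 kb of H3K27me3 beyond. Six2, a homeobox factor, had 12.6 and 15.7 kb of promoter H3K27ac, and 20.2 and 63.3 kb of H3K27me3 beyond. Crnde, a long non-coding RNA, had 13.6 and 12.1 kb and, beyond, 18.4 and 49.2 kb. None of these 4 promoters had an H3K27me3 peak. The call beyond the promoter was lost for Six2 and Crnde at a q-value of at most 0.01 and kept for Micall2, Anxa2 and Arhgef1.

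Of the other arrangement, Adcyap1, the neuropeptide PACAP, had 7.0 and 8.57 kb of promoter H3K27me3, no promoter H3K27ac, and 10.8 and 9.96 kb of H3K27ac beyond against 0.210 and 0 kb of H3K27me3. Nlgn1, a postsynaptic adhesion molecule, had 4.16 and 4.26 kb of promoter H3K27me3 and no H3K27ac there, and 11.3 and 10.8 kb of H3K27ac beyond. The widest of those acetylated peaks, at chr3:24691242-24693084 in replicate 1, lay 1460223 bp from the Nlgn1 start, so that the assignment rests on the nearest start alone.

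Ptprt, a receptor phosphatase, had 4.85 and 5.36 kb of promoter H3K27me3 and 11.1 and 13.0 kb of H3K27ac beyond. Npas1, a neuronal transcription factor, had 5.92 and 9.34 kb of promoter H3K27me3 and 13.8 and 15.3 kb of H3K27ac beyond. Pllp, the myelin protein plasmolipin, had 5.51 and 5.63 kb and 10.4 and 10.1 kb. The smaller margin of each of these 5 genes was below that of each of the 5 genes named for the first arrangement.

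Marker genes of the isolated cell type were mostly trimethylated. Of 5 globose basal cell and progenitor markers, 4 had the wider H3K27me3 promoter, among them Kit, Neurog1 and Lgr5, against 20.8% of all genes with a promoter peak. Kit had 8.83 and 10.2 kb of promoter H3K27me3 against 0 and 0.310 kb of H3K27ac, Lgr5 6.38 and 6.46 kb against none, and Neurog1 18.1 and 23.8 kb against none. Sox2, the remaining one, had no H3K27me3 and 5.20 and 5.20 kb of H3K27ac. Of 4 horizontal basal cell markers, 3 had the wider H3K27ac promoter, against 58.5% of all genes.

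The cells were c-KIT isolated, and the Kit promoter was under H3K27me3 in both lines that were profiled for it. Krt5, a keratin of basal cells, had 5.88 and 6.99 kb of promoter H3K27ac against 1.41 and 0 kb of H3K27me3. Trp63, the master factor of horizontal basal cells, had 0.721 and 2.23 kb against none, and over all classes 26.2 and 37.4 kb of H3K27ac against 2.13 and 1.70 kb. Peaks record chromatin and not RNA, and whether these genes were transcribed was not measured here.

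Markers of other cell types were divided. All 3 sustentacular markers had the wider H3K27me3 promoter, with widths of 0.385 to 2.66 kb, and none of these 3 calls was kept at a q-value of at most 0.01. Of the 4 mature olfactory neuron markers, 2 had the wider H3K27ac promoter, 1 the wider H3K27me3 promoter and 1 no promoter peak. Over all classes 3 had wider H3K27ac and 1 wider H3K27me3. Omp had no H3K27me3 and 4.89 and 3.09 kb of promoter H3K27ac, and Adcy3 1.10 and 1.02 kb of H3K27ac against 0.405 and 0 kb. Gnal, the olfactory G protein, had 9.33 and 16.9 kb of promoter H3K27me3 against 0 and 0.298 kb. A single fibroblast marker of 3, a single endothelial marker of 2 and a single glial marker of 2 had the wider H3K27me3 promoter, and a single leukocyte marker of 2 the wider H3K27ac promoter.

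Developmental regulators were trimethylated in the majority. For 15 gene lists the wider mark was counted at the promoter, beside 20.8 and 58.5% of all genes. Of 60 developmental transcription factors with a promoter peak, other than Hox genes, 37 (61.7%) had wider H3K27me3 and 12 (20%) wider H3K27ac, and the median width difference was 8.49 kb in favour of H3K27me3 against -1.22 kb over all genes. Beyond the promoter the counts were 34 and 14 of 60. Pax2, a regulator of kidney, eye and ear, had 40.9 and 57.3 kb of promoter H3K27me3 and no H3K27ac. Nkx6-1, a regulator of motor neuron and islet cells, had 89.1 and 172 kb of H3K27me3 over all classes against 1.89 and 3.78 kb of H3K27ac. Pax8 and Pax7 led the acetylated side, with 37.5 and 40.8 kb and 79.5 and 45.3 kb of H3K27ac over all classes. Both also carried H3K27me3, Pax8 with 8.27 and 4.52 kb and Pax7 with 19.1 and 13.5 kb.

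Hox genes were under H3K27me3 throughout, a result that the assignment by nearest start shows only in part. By the annotation, 20 of 39 Hox genes were named for any peak, since a peak over a cluster is given to 1 gene. Of the 19 with a promoter peak, 11 had wider H3K27me3 and 1 wider H3K27ac, and the first count was 18 without H3K27me3 replicate 2 and the second 2 without replicate 1. Hoxc10 was named for a peak of 44.0 kb in replicate 1 (chr15:102959512-103003491) and 92.7 kb in replicate 2, with no H3K27ac. Hoxc4 had 52.1 and 45.3 kb of H3K27me3 over all classes and Hoxa13 8.61 and 8.66 kb at the promoter, both with no H3K27ac peak there.

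When bases under peaks were counted over each gene's RefSeq extent with 3 kb on either side, H3K27me3 covered more at 4002 of 18814 coding genes (21.3%) and H3K27ac at 11988 (63.7%). All 39 Hox genes had more H3K27me3 by that count, with margins that came close to 0 at the low end. This count was added after the data had been seen. For other developmental factors it gave 46 and 11 of 66.

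Of the olfactory neuron lineage factors, 18 of 26 (69.2%) had wider H3K27me3 at the promoter and 6 wider H3K27ac. Lhx2 had 24.6 and 41.4 kb against none, including an 18.3 kb peak at chr2:38346374-38364632 in replicate 1. Neurod1, which acts after Neurog1, had 6.52 and 6.79 kb of H3K27me3 against 0 and 0.201 kb of H3K27ac. Ebf1, a factor of maturing olfactory neurons, had 13.7 and 17.8 kb at the promoter against 0 and 0.374 kb, and 27.7 and 87.8 kb in introns against 1.28 and 1.93 kb. Zfp423, a partner of Ebf factors, had 95.0 and 207 kb over all classes against 2.02 and 4.19 kb.

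The 6 members with a wider H3K27ac promoter were Runx1, Tshz1, Ldb1, Sox4, St18 and Hes6. Runx1, a factor of olfactory progenitors, had 277 and 173 kb of H3K27ac over all classes and 11.3 and 10.1 kb of H3K27me3. Tshz1 had 79.5 and 49.4 kb against 1.01 and 1.92 kb. Over extent and flanks H3K27ac came to 162 and 117 kb at Runx1 and 35.8 and 16.5 kb at Tshz1.

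Synaptic genes also had mostly trimethylated promoters. Of 37 synapse and ion channel genes with a promoter peak, 28 (75.7%) had wider H3K27me3 and 4 wider H3K27ac, and beyond the promoter 12 and 7 of 35. Over extent and flanks, more H3K27me3 was counted at 22 of 38 and more H3K27ac at 8. Cacna1a, a presynaptic calcium channel, had 122 and 195 kb of H3K27me3 over all classes against 6.46 and 8.57 kb of H3K27ac, and Kcnma1, a calcium-activated potassium channel, 97.0 and 136 kb against 0.874 and 9.28 kb. Vamp2, a synaptic vesicle protein that other cells use as well, had 16.6 and 15.5 kb of promoter H3K27ac and no H3K27me3, and Rims2, of the active zone, 2.71 and 2.80 kb of H3K27ac against 0.430 and 0.820 kb.

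Immature neuron genes had wider H3K27me3 at 13 of 20 promoters and wider H3K27ac at 6. Crmp1, a mediator of axon guidance, had 8.27 and 8.47 kb of promoter H3K27me3 against none. Nrp2, an axon guidance receptor, had 22.5 and 17.0 kb of promoter H3K27ac against none. Gap43, the growth cone protein, had 0.717 and 1.48 kb of promoter H3K27me3 against 0 and 0.656 kb of H3K27ac, a call lost at a q-value of at most 0.01, and 8.04 and 12.9 kb of H3K27ac beyond with no H3K27me3. Over its extent and flanks Gap43 had 2.16 and 1.49 kb of H3K27ac against 0.717 and 1.48 kb of H3K27me3.

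Mature olfactory neuron genes were evenly divided, with 8 and 9 of 21 promoters. Ano2, the olfactory chloride channel, had 9.52 and 14.5 kb of promoter H3K27me3 against none. Umodl1 had 26.4 and 39.7 kb over all classes against 0 and 0.612 kb. Rtp1, a chaperone of odorant receptors, had 22.2 and 19.0 kb of H3K27ac over all classes against 1.89 and 4.09 kb, most of it away from the gene. Over its extent and flanks Rtp1 had 1.28 and 1.38 kb of H3K27me3 against 0.406 and 0.308 kb of H3K27ac. Gnb1, a G protein subunit used in many cells, had 15 and 16.7 kb against 0 and 0.876 kb.

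Basal cell and progenitor genes had wider H3K27ac at 18 of 27 promoters (66.7%, beside 58.5% of all genes) and wider H3K27me3 at 7. Itgb4, the hemidesmosome integrin of basal cells, had 65.1 and 64.2 kb of promoter H3K27ac and no H3K27me3. Cd44, a surface receptor of basal cells, had 72.1 and 73.3 kb of H3K27ac over all classes against 0.611 and 0 kb. Kit was the opposite, with 78.7 and 54.0 kb of H3K27me3 over all classes against 1.92 and 10.6 kb. Over its extent and flanks Kit had 15.6 and 13.7 kb of H3K27me3 and 1.03 and 0.902 kb of H3K27ac. Pax6, a factor of neural and eye progenitors, was called for neither mark at the promoter. The peaks named for its promoter came to 8.62 and 0 kb of H3K27me3 and 0 and 16.4 kb of H3K27ac. Over its extent and flanks H3K27me3 covered 22.8 and 25.8 kb of Pax6 and H3K27ac 0 and 16.7 kb, so both H3K27me3 libraries and 1 of 2 H3K27ac libraries had peaks over the gene.

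Genes of dividing and of all cells were acetylated. Cell cycle genes had wider H3K27ac at 22 of 24 promoters (91.7%), housekeeping genes at 21 of 26 (80.8%) and Polycomb and trithorax genes at 32 of 36 (88.9%). Cdk6 had 45.9 and 47.0 kb of H3K27ac over all classes against 0.613 and 22.7 kb of H3K27me3. Ywhaz, Eef1a1, Aebp2 and Kmt2a had 54.0 and 53.5, 31.7 and 30.9, 33.1 and 43.4, and 40.4 and 26.1 kb of H3K27ac. Over extent and flanks their H3K27ac values were 11.2 and 15.4, 4.86 and 4.86, 25.4 and 31.6, and 37.1 and 28.0 kb. Cdkn2a, the cell cycle inhibitor locus often held silent by Polycomb, had 3.26 and 4.93 kb of promoter H3K27ac and no H3K27me3.

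The exceptions were few. Ccnd2, cyclin D2, was the single cell cycle gene with wider promoter H3K27me3, 3.23 and 4.17 kb against none. Over the gene's own extent with 3 kb on either side, however, Ccnd2 had 16.2 and 25.9 kb of H3K27ac and 2.38 and 3.28 kb of H3K27me3, and by that count no cell cycle gene had more H3K27me3. Cbx8, a chromodomain subunit of PRC1, was the single Polycomb gene, with 16.4 and 11.2 kb against 1.97 and 1.90 kb. No housekeeping promoter had wider H3K27me3. The peaks named for Rps3 came to 3.59 and 5.25 kb of H3K27me3 over all classes and none of H3K27ac, but over its own extent and flanks Rps3 had 7.31 and 8.32 kb of H3K27ac and 0 and 0.518 kb of H3K27me3. Without H3K27me3 replicate 1, these 3 counts of wider H3K27me3 were 2, 4 and 1, and without H3K27ac replicate 2 the first 2 were 2 and 2, as was the second without H3K27ac replicate 1. Mki67, the proliferation antigen, had an acetylated promoter (2.27 and 1.89 kb against 0 and 1.12 kb) and 38.0 and 89.4 kb of H3K27me3 beyond it against 8.64 and 7.88 kb. Over its extent and flanks Mki67 had 4.86 and 3.55 kb of H3K27ac and 0 and 0.753 kb of H3K27me3, so the H3K27me3 lay farther away.

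BMP and TGF-beta pathway genes had wider promoter H3K27ac about as often as all genes, at 21 of 35 (60.0%) beside 58.5%. Wider promoter H3K27me3 occurred at 3 (8.57%) beside 20.8%. Beyond the promoter the counts of wider H3K27ac and H3K27me3 were 22 and 8 of 34, beside 39.6 and 21.7% of all genes. Tgfbr2 had 201 and 199 kb of H3K27ac over all classes against 4.50 and 10.5 kb, and Smad3, a TGF-beta effector, 89.6 and 77.0 kb against 9.02 and 16.0 kb. Bmpr1a, a BMP receptor, had 3.35 and 4.88 kb of promoter H3K27ac and no H3K27me3.

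The 3 trimethylated promoters of the pathway belonged to ligands. Bmp7 had 12.4 and 14.9 kb against 0.725 and 0.916 kb, Bmp2 had 4.57 and 5.18 kb against none, and Gdf6 had 9.09 and 18.8 kb against 0.934 and 0 kb; the last 2 were named after their values were seen. Without H3K27me3 replicate 1 or 2 this count was 6 or 7. Smad2, a TGF-beta effector, had 2.48 and 2.52 kb of promoter H3K27ac against none and, beyond it, 48.6 and 79.2 kb of H3K27me3 against 8.20 and 8.03 kb. Over its extent and flanks Smad2 had 8.26 and 8.12 kb of H3K27ac and no H3K27me3.

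Lists of other cell types were smaller and less even. Glial genes had wider H3K27me3 at 9 of 13 promoters and wider H3K27ac at 3, led by Olig2 and Olig1, factors of oligodendrocytes, with 17.4 and 28.4 kb and 14.8 and 17.6 kb of promoter H3K27me3 against none. Mbp, a myelin protein gene, had 14.7 and 9.36 kb of promoter H3K27ac against 0 and 0.874 kb, and S100b 23.0 and 12.6 kb over all classes against 0.599 and 0.607 kb.

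Immune and endothelial genes had wider H3K27me3 at 7 of 15 promoters and wider H3K27ac at 3, the first count being 3 at a q-value of at most 0.01 and 12 without H3K27me3 replicate 1. Kdr, a VEGF receptor, had 20.8 and 86.2 kb of H3K27me3 over all classes against 6.09 and 6.04 kb, and Vwf 29.5 and 82.8 kb against 10.9 and 11.3 kb. Over extent and flanks H3K27me3 came to 4.04 and 19.9 kb at Kdr and 34.6 and 86.9 kb at Vwf. Emcn had 21.8 and 12.5 kb of H3K27ac over all classes against 0 and 0.931 kb, most of it away from the gene. Over its extent and flanks Emcn had 1.33 and 0.154 kb of H3K27ac and no H3K27me3. Aif1, a microglial protein, had 2.71 and 5.43 kb of H3K27ac over all classes against none.

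Mesenchymal genes were level at 4 and 4 of 16 promoters (7 and 7 without H3K27me3 replicate 1, and 7 with wider H3K27me3 without replicate 2). Twist2 had 67.9 and 167 kb of H3K27me3 over all classes against 7.35 and 8.57 kb, and Thy1 74.3 and 66.8 kb against 25.7 and 12.7 kb. Over its extent and flanks Twist2 had 8.07 and 39.9 kb of H3K27me3 against 2.54 and 4.66 kb of H3K27ac. For Thy1 these values were 3.96 and 6.32 kb against 2.47 and 1.56 kb. Fn1, fibronectin, had 20.4 and 37.9 kb of H3K27ac against 0 and 0.517 kb, and Prrx1 17.1 and 20.4 kb against 4.44 and 0 kb.

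Sustentacular and gland cell genes had wider H3K27me3 at 6 of 14 promoters and wider H3K27ac at 5. The first count was 0 at a q-value of at most 0.01, and the calls for Muc5ac and Bpifa1, secreted products of gland cells, were among those lost. Krt8, a keratin of simple epithelia, had 15 and 15.2 kb of promoter H3K27ac and no H3K27me3, and Notch2 had 3.19 and 5.04 kb against 0 and 0.516 kb. Apart from the immune and endothelial list, in no other list did a promoter count of wider H3K27me3 move by more than 1.5 times at that q-value. Fewer marked cells and less of a mark per cell cannot be told apart in lists from bulk cultures.

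**Figure D4:**
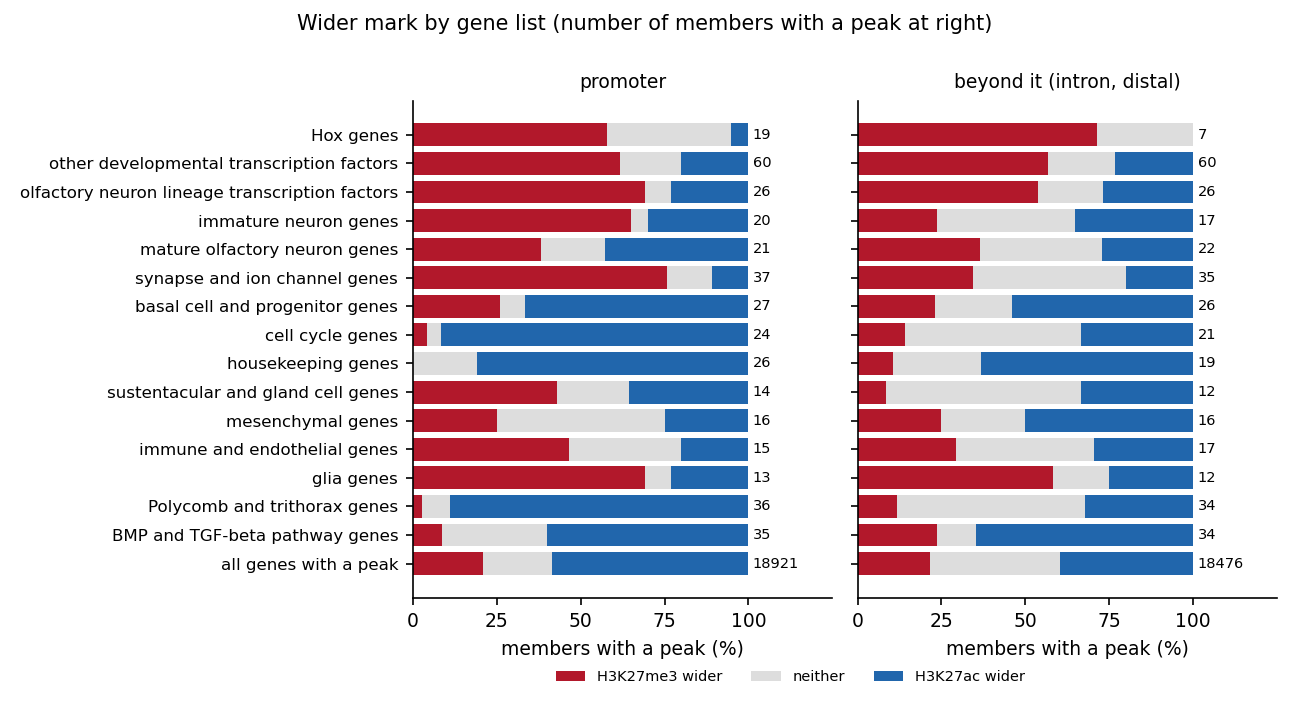
Share of list members with a peak (%, x axis) at which H3K27me3 (red) or H3K27ac (blue) was wider in both libraries, or neither (grey), by gene list (y axis), at the promoter (left) and beyond it (right), with the number of members at the right of each bar. The promoter bars run from 75.7% H3K27me3 for synapse and ion channel genes to 91.7% H3K27ac for cell cycle genes.

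Height was read within libraries only, since the folds of 2 antibodies are not on one scale. In H3K27ac libraries the highest peak of a gene sat at the promoter far more often than in H3K27me3 libraries. Among genes with any peak in the 4 classes, the highest fold was at the promoter for 62.1 and 60.7% in H3K27ac and 34.2 and 34.0% in H3K27me3, and in distal sequence for 19.9 and 20.5% against 39.8 and 45.9%. Where a gene had both promoter and intron peaks, the promoter fold was higher at 83.1 and 80.9% of genes in H3K27ac and 63.1 and 64.7% in H3K27me3. The median ratio of promoter to intron fold was 2.50 and 2.18 for H3K27ac and 1.05 and 1.08 for H3K27me3. Where a gene had both promoter and distal peaks, these shares were 75.4 and 73.8% against 55.2 and 55.6%. The median ratios were 1.85 and 1.70 against 1.03 and 1.03. The shares among genes with any peak include genes without a promoter peak, which cannot have their highest fold there.

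Highest folds of 3 named genes were also read by class. The highest H3K27me3 fold of Nkx6-1 was 5.68 and 8.51 at the promoter and 5.11 and 4.26 in distal sequence, and that of Pax2 was 5.48 and 7.10 at the promoter and 4.77 and 5.88 in distal sequence. At Rbfox3 it was 5.08 and 4.10 at the promoter and 4.10 and 3.73 in introns. Highest folds over whole lists were 7.37 and 8.80 for H3K27me3 and 32.0 and 34.5 for H3K27ac. Width and fold rose together in each list, with Spearman coefficients over peaks of 0.232 and 0.343 for H3K27me3 and 0.454 and 0.535 for H3K27ac. Median folds of H3K27ac peaks under 1 kb were 2.66 and 2.84 and of peaks of at least 10 kb 8.67 and 9.65; for H3K27me3 they were 2.98 and 2.64, and 4.34 and 3.40.

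Few of the bases under one mark also lay under the other. The lists covered 80.7 and 188 Mb (H3K27me3) and 166 and 151 Mb (H3K27ac), and the overlap expected from these lengths alone was not calculated. Of H3K27me3 peaks, 9.85% ± 1.63 (SD over the 4 pairs of libraries) overlapped an H3K27ac peak by at least 1 bp, and of H3K27ac peaks 7.22% ± 0.807 overlapped H3K27me3. With at least 50% of the peak required, the shares were 4.38 and 3.76%. Bases under both H3K27me3 libraries came to 59.5 Mb and under both H3K27ac libraries to 111 Mb, and 574 kb were in both, 0.965% of the first and 0.516% of the second. Between single libraries the shared bases were 2.45 to 4.98% of H3K27me3 length and 2.23 to 3.04% of H3K27ac length. H3K27me3 peaks overlapped most often at promoters, where 21.8 to 26.2% touched H3K27ac, against 5.88 to 8.05% in distal sequence. For H3K27ac peaks these ranges overlapped, at 10.7 to 12.3% of promoter peaks and 6.29 to 11.6% of distal peaks. Between the 2 libraries of line 2, the distal share of H3K27ac peaks was the higher, 11.6 against 10.7%.

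Neighbouring peaks of different marks either overlapped or lay farther apart than neighbours of the same mark. Of the neighbours of different marks, 17.5 to 21.2% overlapped, and these have no gap. For the rest, the median gap between an H3K27me3 peak and the next H3K27ac peak was 4.79 kb ± 0.758 (4.04 to 5.63 kb over 4 pairs of libraries), against 2.38 kb ± 0.247 between H3K27me3 neighbours (2.14 to 2.64) and 2.64 kb ± 0.385 between H3K27ac neighbours (2.25 to 3.10). These ranges did not overlap, but the separation rests on leaving out the overlapping neighbours. Counted as gaps of 0, a choice made after seeing the data, they brought the mixed median to 3.05 kb (2.43 to 3.85 over the pairs), a range that overlaps both same-mark ranges. Within a pair of libraries the mixed median was then longer by as little as 2.82 against 2.81 kb (H3K27me3 replicate 2 with H3K27ac replicate 2, beside H3K27ac neighbours). Of mixed gaps 26.7 to 34.1% were over 10 kb, against 12.3 to 17.8% and 15.8 to 23.4%. The pairs share libraries, so their SD is not that of independent replicates.

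Peaks of 1 list were never closer than 593 to 793 bp, whereas peaks of different marks could touch, so short gaps are not comparable. With gaps of at least 1 kb only, a choice made after seeing the data, the medians were 6.34, 3.13 and 4.06 kb. At a q-value of at most 0.01 they were 11.3, 4.68 and 4.42 kb. Where both libraries of each mark were required, the median mixed gap was 8.70 kb, against 2.43 and 3.54 kb. The order of mixed over same-mark gaps was the same in these 3 settings, all of which leave out overlapping neighbours.

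**Figure D5:**
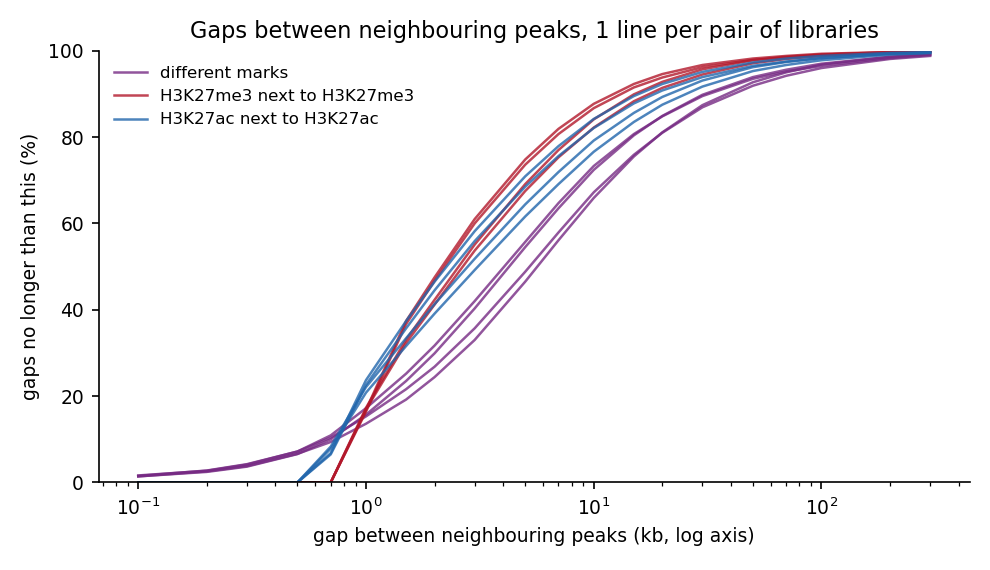
Cumulative share of gaps between neighbouring peaks (%, y axis) up to a given length (kb, log x axis), with 1 line for each of the 4 pairs of libraries and kind of neighbour, without overlapping neighbours. Gaps between different marks lie to the right from about 1 kb on, and same-mark gaps are absent below 593 bp.

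The gaps between the marks differed by class, but the classes are defined by position, which by itself shapes these gaps. Promoter peaks touch the 3 kb around a start, whereas an intron peak and a distal peak lie inside and outside a gene. Promoter H3K27me3 next to promoter H3K27ac had the shortest mixed gaps, with medians of 1.29 to 1.46 kb over 2666 to 3292 gaps per pair of libraries. Exon next to exon gaps were 1.70 to 2.34 kb, intron next to intron 3.51 to 4.75 kb and distal next to distal 4.08 to 5.66 kb. The longest were between intronic H3K27me3 and distal H3K27ac (22.6 to 28.9 kb) and between distal H3K27me3 and intronic H3K27ac (26.7 to 28.3 kb), both from few gaps (296 to 377 and 546 to 723).

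Wide domains of the 2 marks were seldom direct neighbours by the search used here. It took regions under both libraries of a mark, and any smaller such region in between removed a place. The number of places to be expected was not calculated. Of 1821 regions of at least 5 kb under both H3K27me3 libraries and 14997 regions of at least 2 kb under both H3K27ac libraries, 22 places had the 2 as neighbours less than 5 kb apart. The widest joined a 12.6 kb H3K27me3 domain at the promoter of Tlx2, a homeobox gene (chr6:83062827-83075448), to a 6.38 kb H3K27ac domain at Htra2, a mitochondrial protease (chr6:83052656-83059034), across a gap of 3.79 kb over Dqx1. Folds there were 5.75 and 5.90 for H3K27me3 and 8.87 and 8.71 for H3K27ac.

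At the second, H3K27me3 over Psd (chr19:46315037-46326987) stopped 1.00 kb from H3K27ac at the promoter of Fbxl15 (chr19:46327992-46332110). At the third, H3K27me3 at Mir7-2 (chr7:78880551-78889624) stood 4.82 kb from H3K27ac at Aen, a p53-induced nuclease (chr7:78894448-78899062). At Gata3, a factor of lymphoid and epithelial cells, both marks lay on a single locus, with 11.3 kb of H3K27me3 (chr2:9880951-9892207) 1.33 kb from 2.05 kb of H3K27ac (chr2:9877566-9879616) that was annotated to the Gata3 promoter, while the H3K27me3 was annotated to a neighbouring non-coding gene.

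Ppy, pancreatic polypeptide, was named for both domains of a further place, chr11:102099333-102109561 for H3K27me3 and chr11:102095886-102097894 for H3K27ac, 1.44 kb apart. In the 5 places described H3K27me3 was between 9.07 and 12.6 kb long and H3K27ac between 2.01 and 6.38 kb. H3K27me3 was the longer domain at 21 of the 22 places, but the search itself asked for at least 5 kb of H3K27me3 and only 2 kb of H3K27ac. The exception, named after its values were seen, was Stac2, with 5.09 kb of H3K27me3 and a longer H3K27ac domain.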

How the data were processed

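ChIP-seq peak lists of 4 libraries, 2 per mark, were used as the authors deposited them. The submitters' processing notes name MACS2 (2.1.1.20160309), BWA (0.7.12), Trim Galore (0.4.3), bcl2fastq (2.17) and build mm10, with no order or role. The sources used here do not give the options, the handling of duplicates or each list's control. Per the file headers, each peak has the authors' fold enrichment (a ratio to control), −log10 q-value and annotation class and gene. Names of H3K27ac peaks contain "combined", which no source explains. Whether libraries were pooled before calling is therefore unknown, and so is how far the 2 H3K27ac lists are independent. The deposited −log10 q-value served only for a stricter threshold, 0.01, within lists that reach 0.1. The lists of the 2 Polycomb proteins and the 5 inputs were not analysed here. The labels call the libraries of a mark biological replicates, and they come from different lines.

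Peaks on chromosomes 1 to 19 and X were used (Python 3.11.15, pandas 2.3.3, numpy 2.4.6, matplotlib 3.10.9). Widths were summed per library, gene and class, and the highest fold kept. The gene is that of the nearest start: 24.0 to 26.9% of exon and intron peaks lay inside another gene. A peak that is not listed counts as width 0. Gaps run between the end of a peak and the start of the next, for each of 4 pairs of libraries. The code was tested on simulated peaks with known answers.

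Genes, lists and tests were chosen with earlier results of these data known. Named are the 3 genes per class and mark with the largest margin, 5 per opposite arrangement, the 2 members of each list with the largest margin over all classes in each direction, 6 borders and 15 genes by name; predicted genes are left out, and 1 border and several genes picked in this way are not reported. Promoter windows came from RefSeq, GRCm38.p6. Alternatives were a stricter q-value, widths relative to the library, other gene assignments, narrower promoters, shares of peak number, joined peaks, larger overlap, other chromosomes, a single line and leaving out each library.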

Additional observations from a re-analysis of the deposited data

Results flagged for a closer look

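Chromosome Y was left out of the comparisons, and all 4 lists held peaks there: 17 and 22 for H3K27me3 (replicates 1 and 2) and 84 and 77 for H3K27ac. No control library was used, and the values are given with no test.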

How the results depend on the processing

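Peaks with a q-value of at most 0.01 gave fewer genes with wider H3K27me3: 2380 at promoters, 442 in exons, 697 in introns, 1571 in distal sequence and 2856 over all classes, and 345 with an acetylated promoter and H3K27me3 beyond it. The shares of overlapping peaks were then 7.44% (H3K27me3) and 2.57% (H3K27ac), the median gaps 11.3 kb (different marks), 4.68 kb (H3K27me3) and 4.42 kb (H3K27ac), and the promoter difference reversed to 1.13 percentage points. Requiring 50% overlap gave 4.38 and 3.76%. Joining peaks under 1 kb apart gave same-mark gaps of 3.13 and 4.06 kb, gaps of at least 1 kb alone gave 6.34, 3.13 and 4.06 kb, overlapping neighbours counted as gaps of 0 gave 3.05 kb between different marks, and line 2 alone gave 2.25 kb between H3K27ac neighbours. Without each library in turn, genes with wider H3K27me3 ranged from 1340 to 2709 in exons, 2020 to 3472 in introns, 4053 to 6858 in distal sequence and 5211 to 7885 over all classes, genes with wider H3K27ac in exons from 3700 to 5416, and genes with opposite arrangements from 1130 to 2256 and from 534 to 863. Fewer peaks or fewer libraries enter these counts by construction. The other alternatives, 75 values, were counted as unchanged. For gene counts this meant within 1.5 times the main count, and for gaps and overlap shares within the SD over the library pairs. For differences in length share it meant only the same sign. At a q-value of at most 0.01 these were -10.5 points in introns and 12.9 points in distal sequence. The replicate number does not pair libraries, since the same number stands for different lines. A replicate block left the differences in length share at -7.72, -1.95, -6.87 and 19.2 points, with an exact p of 0.5, the smallest that 2 pairs allow. Depth is unknown, so a listed width of 0 is limited by an unmeasured sensitivity.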

Other observations

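Olfactory receptor genes, which mature neurons express singly, were named for peaks of these lists in 395 cases. H3K27me3 was wider at 102 of them and H3K27ac at 74 over all classes, beside 22.4 and 52.8% of all genes. Of 198 with a promoter peak, 69 had wider H3K27me3 and 20 wider H3K27ac, beside 20.8 and 58.5% of all genes. Beyond the promoter the counts were 64 and 58 of 330, beside 21.7 and 39.6% of all genes.

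Chromosome X carried little of either mark, with 0.345 and 0.323% of H3K27me3 peak length and 0.919 and 1.18% of H3K27ac peak length. The sequence of the 22 borders between wide domains was not analysed here.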
